A study of Mus musculus with 4 samples.

Results

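Remote acetylated regions are described here: peaks of acetylation of histone H3 at lysine 27 (H3K27ac) in mouse neural stem cells whose summit lay more than 50 kb from both ends of every RefSeq protein-coding or lncRNA gene on chromosomes 1 to 19. The list of Smchd1-deleted cells held 8686 such peaks among 90483, and the list of control cells held 5281 among 62955, together 13967 of 153438. Each peak was then placed inside a gene body or between genes. The 50 kb limit is on distance alone and uses no measured level.

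The cells were neural stem cell cultures of line 1, derived from female E14.5 embryos with 1 deleted and 1 floxed Smchd1 allele (Smchd1 del/fl). All carried a maternal X chromosome of strain 129 with the Xist deltaA allele and a paternal X of Castaneus origin, and the strain field reads C57BL/6. Deleted cells (Smchd1 del/del) had received the retrovirus MSCV-Cre-puro, were given puromycin from 24 h and were collected on day 7. Control cells were kept without virus, so loss of Smchd1, transduction and drug selection cannot be told apart. The control ChIP is titled Smchd1 fl/fl, its genotype field reads Smchd1 del/fl, and the genotype field of its input reads del/del. The antibody field names H3K27me3 where the titles name H3K27ac. There was 1 ChIP library and 1 whole-cell-extract input library in each of the 2 groups, 4 libraries in all, and no replicate of either group. Every difference given below is therefore between 2 libraries and has no test. Percentages carry exact Clopper-Pearson 95% intervals in parentheses, which cover counting error alone and treat peaks as independent, which neighbours may not be. After filtering, 54194233 ChIP tags remained in deleted and 42277672 in control cells, a ratio of 1.28, and a deeper library lets weaker peaks pass the caller.

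H3K27ac is laid down by the acetyltransferases p300 and CBP and marks active promoters and enhancers. Enhancers can lie far from the promoter they act on, either in introns of long genes or in gene deserts, and many developmental transcription factors sit beside such deserts. Smchd1 is a chromatin protein of the structural maintenance of chromosomes family, known for its part in X inactivation and in silencing of clustered genes. A peak far from every gene end can still lie on a promoter, because long genes often have alternative starts within their body. Marker genes of several cell types were also counted. Of 16 neural stem cell genes, 14 had a peak within 1 kb of an end in both lists. The same held for 2 of 17 neuron, 2 of 8 fibroblast, 1 of 7 microglial and 0 of 6 endothelial genes. Among these marker lists the share was highest for the labelled cell type, but it cannot be set against genes in general. These markers were chosen with earlier results of these data known, and no share over all genes is given for comparison. The identity of the cells was not tested.

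Several of the strongest remote peaks inside genes overlapped windows at internal gene starts, and sequences of such windows are shown for that reason. RefSeq gives 300-base windows, from 250 bases before to 50 bases after a start. Of 31365 distinct windows, 261 in 197 genes had a start over 50 kb from any gene end, and all 261 lay inside genes. The following windows, on GRCm38.p6 and written 5′ to 3′ along the gene, are the 5 with the highest fold enrichment averaged over both lists without scaling (1 start a gene), and the most enriched one of each list whose peak had no counterpart in the other. Capitals mark each CpG, the dinucleotide that clusters at CpG island promoters.
Magi1: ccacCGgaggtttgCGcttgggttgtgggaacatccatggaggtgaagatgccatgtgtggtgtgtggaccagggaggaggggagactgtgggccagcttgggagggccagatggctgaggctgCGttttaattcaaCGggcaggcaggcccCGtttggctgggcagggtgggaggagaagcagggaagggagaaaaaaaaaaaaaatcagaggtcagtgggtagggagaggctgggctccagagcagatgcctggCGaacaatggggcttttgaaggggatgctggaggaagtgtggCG
Rgl1: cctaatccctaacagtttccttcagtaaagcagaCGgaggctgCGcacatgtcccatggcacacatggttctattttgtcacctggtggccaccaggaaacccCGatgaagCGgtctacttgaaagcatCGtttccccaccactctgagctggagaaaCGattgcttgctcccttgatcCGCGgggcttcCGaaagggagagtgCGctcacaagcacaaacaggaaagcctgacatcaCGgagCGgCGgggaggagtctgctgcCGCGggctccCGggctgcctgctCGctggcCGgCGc
Celf2: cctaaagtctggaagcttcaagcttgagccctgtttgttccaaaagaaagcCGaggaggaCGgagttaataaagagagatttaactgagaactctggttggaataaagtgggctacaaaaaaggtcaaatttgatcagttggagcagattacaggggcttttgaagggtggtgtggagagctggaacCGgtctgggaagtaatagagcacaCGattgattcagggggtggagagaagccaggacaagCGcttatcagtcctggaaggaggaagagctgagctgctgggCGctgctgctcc
Nav2: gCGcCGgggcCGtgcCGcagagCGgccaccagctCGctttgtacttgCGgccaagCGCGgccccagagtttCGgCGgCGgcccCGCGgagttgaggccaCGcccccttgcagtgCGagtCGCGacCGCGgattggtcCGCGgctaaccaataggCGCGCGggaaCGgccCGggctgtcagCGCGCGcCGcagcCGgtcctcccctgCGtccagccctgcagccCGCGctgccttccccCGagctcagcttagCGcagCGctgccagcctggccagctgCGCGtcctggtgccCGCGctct
Rapgef2: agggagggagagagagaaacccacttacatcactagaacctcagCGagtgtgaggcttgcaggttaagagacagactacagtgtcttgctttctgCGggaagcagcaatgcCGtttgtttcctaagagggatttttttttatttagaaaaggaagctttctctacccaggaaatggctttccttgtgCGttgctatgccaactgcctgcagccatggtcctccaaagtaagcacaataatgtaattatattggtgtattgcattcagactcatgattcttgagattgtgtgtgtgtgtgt
Tafa5: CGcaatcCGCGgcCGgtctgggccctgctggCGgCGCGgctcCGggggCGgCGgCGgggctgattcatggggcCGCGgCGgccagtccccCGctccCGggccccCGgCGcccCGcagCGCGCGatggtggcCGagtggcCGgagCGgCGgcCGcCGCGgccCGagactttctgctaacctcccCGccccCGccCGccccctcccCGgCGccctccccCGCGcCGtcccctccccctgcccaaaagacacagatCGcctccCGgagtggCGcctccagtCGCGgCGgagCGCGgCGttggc
Nckap5: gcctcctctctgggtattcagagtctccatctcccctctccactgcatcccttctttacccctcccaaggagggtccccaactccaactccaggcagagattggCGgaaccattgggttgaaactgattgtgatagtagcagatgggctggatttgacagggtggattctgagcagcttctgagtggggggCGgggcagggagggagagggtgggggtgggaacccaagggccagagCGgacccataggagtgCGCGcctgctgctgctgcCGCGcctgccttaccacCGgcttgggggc
Magi1 encodes a scaffold protein of cell junctions, and its window lies at chr6:93912914-93913213 on the minus strand. Rgl1, a guanine nucleotide exchange factor for Ral, has its window at chr1:152625168-152625467 on the minus strand. Celf2, an RNA-binding splicing regulator, has its window at chr2:7081253-7081552 on the minus strand. Nav2, a cytoskeletal protein of growing neurites, has its window at chr7:49245939-49246238 on the plus strand. Rapgef2, an exchange factor for Rap, has its window at chr3:79145697-79145996 on the minus strand. Tafa5 encodes a secreted protein, and its window at chr15:87624980-87625279 on the plus strand was under a peak of the deleted list only. Nckap5 has its window at chr1:126492878-126493177 on the minus strand, under a peak of the control list only. The CpG content of these windows spanned a wide range. Tafa5 held 47 CpGs and Nav2 42, while Rgl1 held 19, Nckap5 8, Magi1 7, Celf2 6 and Rapgef2 4. Peaks of high fold enrichment thus touched both a CpG-rich window, as at Nav2, and one with few CpGs, as at Rapgef2. A window counted as under a peak when they shared at least 1 base. The Nav2 peaks began at 49246203 (deleted) and 49246229 (control), past the start at 49246189, so most of that window lay outside them. The Tafa5 peak ended at 87624991, within the first bases of its window. The control peaks at Rapgef2 and Rgl1 began at 79145958 and 152625235, upstream of the start. Both Magi1 peaks also lay upstream of the start at 93912963, beginning at 93913039 (deleted) and 93913076 (control). The Nckap5 peak ended at 126492923 and did not reach the start at 126492927.

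Remote peaks were a small part of each list. They made up 9.60% (9.41 to 9.79) of the deleted list and 8.39% (8.17 to 8.61) of the control list. Most were inside genes: 6067 of the deleted list, or 69.9% (68.9 to 70.8), and 3717 of the control list, or 70.4% (69.1 to 71.6). Those between genes numbered 2619 and 1564. The split between gene bodies and deserts was thus nearly alike in the lists, while the total was 1.64 times larger in the deleted list.

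**Figure D1:**
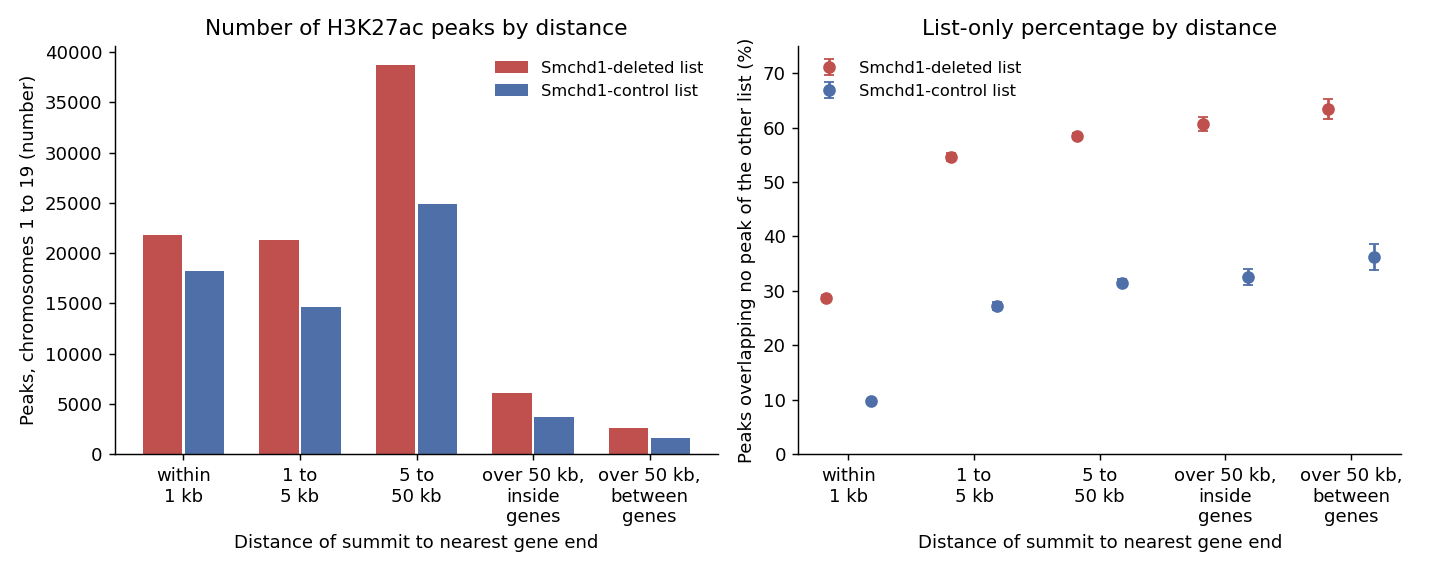
Left, the number of peaks on chromosomes 1 to 19 in each class of distance from summit to nearest gene end, for the deleted and the control list; right, the percentage of peaks in each class that overlap no peak of the other list, with exact 95% intervals. The remote classes hold 6067 and 3717 peaks inside genes and 2619 and 1564 between genes, and their list-only percentages (60.7 and 63.5 for deleted, 32.5 and 36.3 for control peaks) are the highest of the 5 classes.

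Distances were similar in both lists. The median distance to the nearest gene end was 81376 bases for deleted and 80127 bases for control peaks. Beyond 100 kb lay 31.0% (29.9 to 32.2) of the deleted and 29.7% (28.2 to 31.1) of the control peaks inside genes, and 44.8% (42.9 to 46.8) and 44.9% (42.4 to 47.4) of those between genes. More than 1 Mb from any gene end were 14 deleted and 7 control peaks, all between genes. The farthest were weak peaks on chromosome 3, up to 1444777 bases from the lncRNA gene D3Ertd751e. In the deleted list they were at chr3:43248016-43248188 with a fold enrichment of 3.02 and at chr3:43247664-43247843 with 3.36. Both overlapped the control peak at chr3:43247783-43248206 with 3.23. Next came peaks beyond Nova1, a neuronal splicing factor gene on chromosome 12, at 1150835 bases from a gene end in the deleted list (3.33, no control counterpart) and 1168106 in the control list (4.64, no deleted counterpart).

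The 50 kb limit cut through ordinary weak peaks. Just inside it in the deleted list were peaks in Fry (50005 bases, fold enrichment 3.83) and St6gal1 (50009 bases, 3.02), and just outside it peaks in Sytl2 (49997 bases, 2.52) and Afap1 (49986 bases, 4.53). In the control list the nearest inside were beside Dleu7 (50003 bases, 3.83) and in Ctnnbl1 (50026 bases, 3.23). The nearest outside were beside Gm36920 (49987 bases, 4.24) and in A230057D06Rik (49976 bases, 3.78).

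Remote sequence was acetylated sparsely and unevenly. The genome over 50 kb from gene ends came to 274.8 Mb inside genes, in 2315 uninterrupted stretches, and 570.7 Mb between genes, in 2616 stretches. Gene bodies held 22.1 deleted and 13.5 control peaks per Mb, deserts 4.56 and 2.67, and sequence within 50 kb of a gene end 51.3 and 36.2. Sequence deep inside genes was therefore several times denser in peaks than desert sequence in both lists. Of all 4931 stretches, 1084 held a peak in both lists, 495 in the deleted one alone, 91 in the control one alone and 3261 in neither. In the deleted list 195 stretches, 3.96% of them, were enough to hold 50% of the peaks, and in the control list 157 stretches, 3.18%. The next remote peak was at a median of 3189 bases in the deleted and 3880 bases in the control list, farther than the 2196 and 2542 bases between peaks nearer to genes. Gaps within 5 kb were 55.9% (54.9 to 57.0) and 52.5% (51.2 to 53.9) of those between remote peaks, against 64.0% (63.7 to 64.3) and 59.8% (59.4 to 60.2) of the others.

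Among chromosomes, the remote share of peaks ran from 6.08% on chromosome 17 to 14.6% on chromosome 3 in the deleted list and from 4.51% to 13.7% on the same chromosomes in the control list. The ratio of deleted to control remote peaks ranged from 1.41 on chromosome 2 to 1.92 on chromosome 17, with a median of 1.67, so it was above 1 on each of the 19 autosomes.

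Remote peaks were weaker and narrower than the rest of their list, but close to peaks 5 to 50 kb from a gene end. Fold enrichment is the authors' MACS2 value, the summit pileup over the local background estimated from the input, and is compared here within a list, with values of the other list set beside it unscaled. Its median over remote peaks was 3.36 in the deleted list (quartiles 3.02 and 4.03, highest 16.1) and 3.80 in the control list (3.33 and 4.44, highest 15.7), against 3.53 and 4.04 over all autosomal peaks. A fold enrichment of at least 5 was reached by 822 remote peaks of the deleted list, 9.46% (8.86 to 10.1), where the whole list had 20.9%. In the control list 767 reached it, 14.52% (13.6 to 15.5), against 28.9% of the whole list. The median width was 276 bases in the deleted and 283 bases in the control list, against 315 and 317 bases for peaks nearer to genes. The local background stood above the genome-wide floor of its list at 20.9% (20.1 to 21.8) of deleted and 23.1% (21.9 to 24.2) of control remote peaks, against 13.9% and 15.5% of the other peaks, and its part in these values was not tested.

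The surplus of remote peaks in the deleted list lay mostly among peaks enriched less than 5-fold, as did the surplus of all other peaks. The ratio of deleted to control numbers was 1.64 (1.59 to 1.70) for remote peaks, 1.42 (1.40 to 1.43) for all others, 1.56 (1.53 to 1.58) at 5 to 50 kb and 1.196 (1.17 to 1.22) within 1 kb of a gene end. Among peaks enriched at least 5-fold the remote ratio was 1.07 (0.970 to 1.18). At the same cut the ratio was 1.038 for all others and 1.047 at 5 to 50 kb, so its fall was not particular to remote peaks. Fold enrichment is not scaled between the lists, so this cut need not mean the same level in both. After the deleted list was shortened to the length of the control list by its q-values, 5475 deleted stood against 5281 control remote peaks, a ratio of 1.04 (0.998 to 1.08). The other peaks then had 0.997 (0.985 to 1.008). This cut makes the whole lists equal in advance, so a remote ratio near 1 there cannot show where the surplus lay. In both of these settings the interval of the remote ratio includes 1. ChIP depth, which was 1.28 times larger in deleted cells, moves with the surplus, and its part was not tested.

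Peaks found in 1 list only were commoner far from genes. Of the deleted list's remote peaks, 5342 overlapped no control peak by even 1 base, 61.5% (60.5 to 62.5), where the whole autosomal list had 50.7%. Of the control list's, 1775 overlapped no deleted peak, 33.6% (32.3 to 34.9), where the whole list had 24.4%. Peaks 5 to 50 kb from a gene end were close to them, at 58.4% (57.9 to 58.9) and 31.5% (30.9 to 32.1). Peaks between genes were list-only slightly more often than those inside, at 63.5% (61.6 to 65.3) against 60.7% (59.4 to 61.9) in the deleted list and 36.3% (33.9 to 38.7) against 32.5% (31.0 to 34.03) in the control list.

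Much of this followed the strength of the peaks. Each list was divided into 10 groups of equal size by fold enrichment. The remote share of a group fell from 13.1% in the weakest to 2.08% in the strongest of the deleted list, and from 11.9% to 1.80% in the control list. The list-only share of remote peaks fell with them, from 79.3% (76.9 to 81.6) to 0.532% (0.0135 to 2.93), which is 1 of 188 peaks, in the deleted list. In the control list it fell from 48.9% (45.2 to 52.5) to 0 of 113 peaks, for which the interval reaches 3.21%. Given the list-only rates of the other peaks in the same 10 groups, the remote peaks would have been list-only in 58.5% (deleted) and 29.6% (control) of cases, so the measured 61.5% and 33.6% were still higher by a few percentage points. Intervals of remote and other peaks did not overlap in the fifth group of the deleted list, with 72.6% (69.7 to 75.3) against 67.0% (66.0 to 68.1), or in the third and the fifth to seventh of the control list. In the last 3 of these groups, 38.7% (34.8 to 42.8), 27.8% (24.2 to 31.6) and 16.6% (13.7 to 19.9) of remote peaks were list-only against 31.1% (29.9 to 32.3), 21.9% (20.8 to 23.0) and 11.4% (10.55 to 12.2) of the others.

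**Figure D2:**
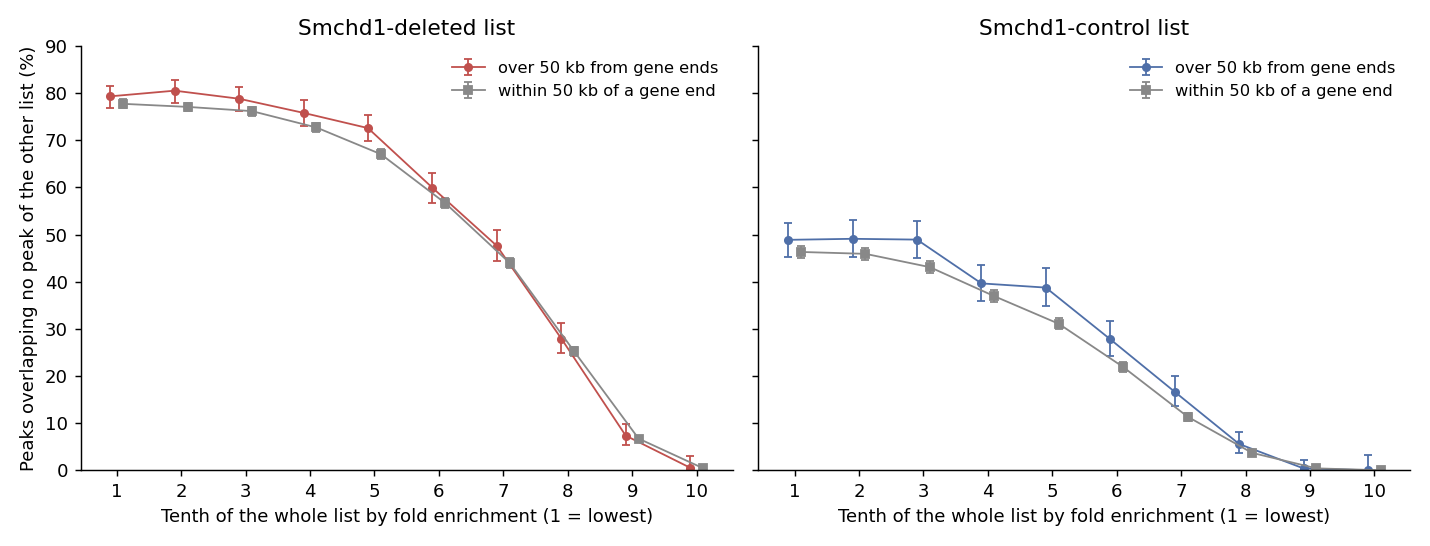
List-only percentage, with exact 95% intervals, in 10 equal groups of each whole list ordered by fold enrichment from 1 (weakest) to 10, for peaks over 50 kb from gene ends and for those nearer. In both lists the 2 curves fall together, from 79.3% to 0.532% for remote peaks of the deleted list and from 48.9% to 0% for those of the control list, with the remote curve a little above in most of the weaker groups.

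Where both lists had a remote peak, its rank was only loosely kept. Among 2667 pairs of remote peaks matched 1 to 1, the fold enrichments had a Spearman correlation of 0.458 across peaks, against 0.733 for 32835 pairs nearer to genes, and the summits were a median of 79 bases apart. Fold enrichment spread less over all remote peaks than over the others, with deleted quartiles of 3.02 and 4.03 against 3.14 and 4.70. A narrower spread can lower such a correlation by itself, and its part was not tested. The points share their libraries and are no replicates.

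The strongest remote peaks inside genes were in both lists. The highest in each list was in Tcf4, a bHLH E-protein that pairs with proneural factors, at chr18:69521050-69524268 with a fold enrichment of 16.1 in the deleted list and at chr18:69519329-69523082 with 15.7 in the control list. Rgl1, whose internal start is printed above, followed in the deleted list with 14.1 at chr1:152624586-152625532 (10.2 in the control list). Pde4d, a cAMP phosphodiesterase, had 13.2 at chr13:109821960-109822520 and 6.50 in the control list. Rapgef2 had 12.6 in deleted and 11.9 in control cells. Schip1, which encodes a partner of the tumour suppressor schwannomin and overlaps the read-through gene Iqschfp, had 12.4 and 12.1. The control list also ranked Magi1, with 13.5 at chr6:93913076-93913651 against 11.7 in the deleted list. Rptor, the mTORC1 subunit Raptor, had 12.1 in the control and 11.7 in the deleted list. The widest remote peak of each list lay in Zbtb20, a transcription factor of hippocampal and astrocyte development, and covered 4667 bases in the deleted and 3791 bases in the control list.

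Between genes, the highest fold enrichment in each list was at chr8:20122297-20123105, between the lncRNA genes Gm36166 and Gm40468, with 14.7 in deleted and 15.1 in control cells. Another peak nearby, at chr8:20423893-20424775, had 10.8 and 11.5. The local background at this pair was 13.0 and 12 tags in the deleted list, above the floor of 4.96, and 10.03 and 9.29 in the control list, above 3.96; its part in the peaks was not tested. Farther along the chromosome a peak at chr8:126666853-126667845 had 12.9 and 9.89. A peak at chr2:116976418-116977483 had 12.6 and 7.12. In the desert between Sall3, a zinc-finger factor, and Galr1, a galanin receptor gene, a peak of 2368 bases at chr18:81049625-81051992 had 10.4 and 8.07. The control list put in its first 5 a peak beside Ptprz1, a receptor phosphatase of radial glia, at chr6:22794771-22797494 with 10.3 against 7.14 in the deleted list, and one beside Nebl at chr2:17839263-17839940 with 8.40 against 7.38.

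Peaks of 1 list only were at most moderately enriched. Inside genes, the strongest of the deleted list was in Zfhx3, a homeobox and zinc-finger factor, at chr8:108755319-108755681 with 7.72. Sox6, a SoxD factor of progenitors and oligodendrocyte precursors, followed with 6.33 at chr7:115722285-115722717, then Tafa5 with 6.21, Sema5a, a transmembrane semaphorin, with 6.04, and Ank2, which encodes ankyrin-B, with 5.88. Those of the control list were in Nckap5 (5.45), Plekha5 (5.45), Abr (5.40), Schip1 (5.25) and Xylt1 (5.25). Sox6 as a whole had 38 deleted and 22 control remote peaks, of which 25 and 5 were list-only. Zfhx3 had 14 and 7, of which 9 and 2 were list-only. Over all remote peaks inside genes these shares were 60.7% and 32.5%, so neither gene stood far from them in the deleted list. Between genes, the strongest deleted-only peak was at chr5:85771934-85772181 (6.21) and the strongest control-only peak at chr12:68463709-68463987 (6.86), 187013 bases from the lncRNA gene Gm31307. The other 4 strongest between genes ran from 5.37 to 5.88 in the deleted list and from 5.17 to 5.25 in the control list.

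Remote peaks were spread unevenly over long genes. A gene could hold one only if its body reached more than 50 kb from any gene end, and 2059 genes did. Of these, 641 (31.1%) held a remote peak in both lists, 235 (11.4%) in the deleted one alone, 44 (2.14%) in the control one alone and 1139 in neither. Xylt1, the xylosyltransferase that starts glycosaminoglycan chains on proteoglycans, held most, 75 deleted and 65 control peaks at chr7:117380979-117667630. Kcnd3, which encodes the potassium channel Kv4.3, held 65 and 57. Npas3, a bHLH-PAS transcription factor of neural progenitors, held 70 and 47. Msi2, an RNA-binding protein of stem cells, held 62 and 49. These numbers were higher for the deleted list, but by less than the ratio of 1.63 over all remote peaks inside genes. With lists of equal length Xylt1 held 57 deleted and 65 control peaks and Npas3 46 and 47. Among peaks enriched at least 5-fold Xylt1 held 7 and 15, but Npas3 10 and 5. The order thus turned in both settings for Xylt1, and barely and in the first setting only for Npas3.

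Sergef held 63 deleted and 46 control peaks, Cdkal1, a tRNA-modifying enzyme gene, 63 and 41, Rad51b, of recombination repair, 57 and 35, and Rptor 50 and 39. Anks1b, a postsynaptic protein gene, held 54 and 28, and Ank2 47 and 33. Density varied among these 10 genes. Per 100 kb of body over 50 kb from gene ends, Sergef had 73.3 deleted and 53.5 control peaks, Kcnd3 53.7 and 47.1 and Xylt1 40.2 and 34.8, while Anks1b had 5.40 and 2.80. Of the 5 fullest bins of 1 Mb, 4 were those of Xylt1, Npas3, Kcnd3 and Msi2. The fullest, on chromosome 11 from 8 to 9 Mb, held 110 deleted and 78 control peaks in and beside Tns3, which encodes the adhesion protein tensin 3. Over the 1255 bins with a remote peak the median was 3 deleted and 2 control peaks.

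The gap between lists differed from gene to gene. Anks1b had 26 more remote peaks in the deleted list, Dpp6, an auxiliary subunit of Kv4 channels, 24 more (35 and 11), Npas3 23 more, and Cdkal1 and Rad51b 22 more each. With lists of equal length the gap was 21 against 11 in Dpp6 and 33 against 28 in Anks1b. A few genes held more in the control list from the outset: Chrm3, a muscarinic receptor gene, had 15 deleted and 21 control peaks, Elavl4, a neuronal RNA-binding protein gene, 3 and 8, Adgrl2, a latrophilin gene, 1 and 5, Disc1 12 and 16, and the lncRNA gene Gm34196 9 and 13. Among the 113 genes with at least 10 control remote peaks, the ratio of deleted to control numbers ran from 0.692 in Gm34196 to 3.18 in Dpp6, with a median of 1.40, and was under 1 in 11 genes.

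**Figure D3:**
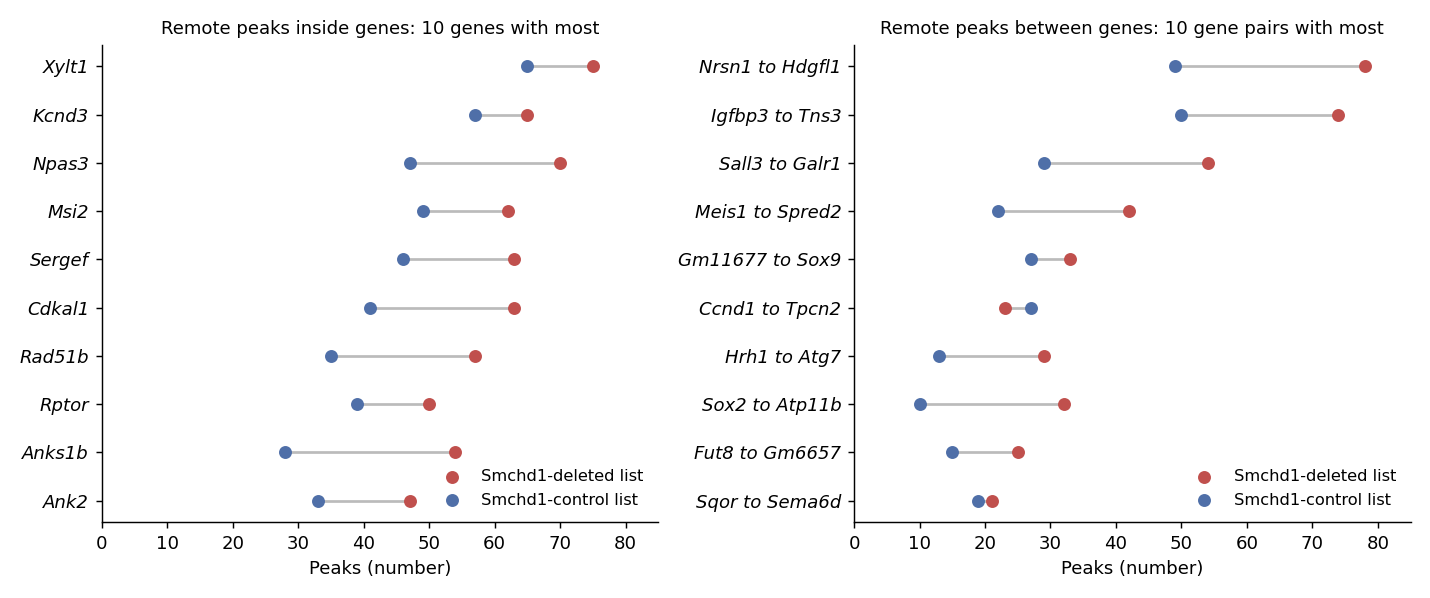
Number of remote peaks of deleted and of control cells, left in the 10 genes with most remote peaks in their body and right between the 10 pairs of neighbouring protein-coding genes with most, leaving out the high-background end of chromosome 9. Each gene on the left has more deleted than control peaks, from 75 and 65 in Xylt1 to 47 and 33 in Ank2; on the right, Ccnd1 to Tpcn2 has 23 deleted and 27 control peaks and the other 9 pairs have more deleted peaks.

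Between genes, the peaks were likewise spread unevenly over deserts. Here a desert is the space between neighbouring protein-coding genes, within which lncRNA genes may lie. The desert from Nrsn1, a neuronal membrane protein gene, to Hdgfl1 on chromosome 13 held 78 deleted and 49 control remote peaks, of which 45 and 16 were list-only. That from Igfbp3, which encodes an insulin-like growth factor binding protein, to Tns3 held 74 and 50, with 44 and 15 list-only. With lists of equal length it held 44 deleted and 50 control peaks, so the order turned, but 14 and 10 among peaks enriched at least 5-fold. Sall3 to Galr1 held 54 and 29, with 35 and 9 list-only, but 7 and 10 among peaks enriched at least 5-fold. Meis1, a homeobox factor of progenitors, to Spred2 held 42 and 22, with 28 and 6 list-only. Over all remote peaks between genes, 63.5% of deleted and 36.3% of control peaks were list-only, so most deleted peaks of a desert being list-only is the rule there.

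The space between Gm11677 and Sox9, a factor of neural stem cells and glia, held 33 deleted and 27 control peaks over 606.6 kb of remote sequence. Its highest peak was at chr11:112500656-112501818 with a fold enrichment of 7.72, and 6.66 in the control list. Beside Sox2, the SoxB1 factor that keeps neural progenitors, the desert to Atp11b held 32 deleted peaks, 23 of them list-only, and 10 control peaks, 1 of them list-only. With lists of equal length these numbers were 19 and 10. Ccnd1, the cyclin D1 gene, to Tpcn2 went the other way with 23 deleted and 27 control peaks within 29.2 kb of remote sequence, and 14 and 27 with lists of equal length. Hrh1 to Atg7 held 29 and 13, Fut8 to Gm6657 25 and 15, Sqor to Sema6d 21 and 19, and Fam3c to Ptprz1 19 and 18. Deserts with similar totals thus differed in how they divided between the lists.

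A last group of members has another character. At the start of chromosome 9, nearest to the lncRNA gene 4930433N12Rik, 18 deleted and 38 control peaks lay within chr9:3000034-3038279. Their fold enrichments ran only from 1.33 to 1.48 in the deleted and from 1.39 to 2.11 in the control list. The local background there was 225 to 257 tags in the deleted list, against its floor of 4.96, and 151 to 199 in the control list, against 3.96. Of these peaks 0 deleted and 21 control were list-only. In all, 27 deleted and 51 control remote peaks had a local background over 5 times the floor, and its part in them was not tested.

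Counting for each peak between genes the single nearest gene of either kind, 481 of 33073 genes (1.45%) were nearest to a remote peak in both lists. Tns3 was nearest to 70 deleted and 47 control peaks and Hdgfl1 to 44 and 28. Next, after 4930433N12Rik, came the lncRNA genes Gm11351 with 28 and 17, Gm27239 with 27 and 15, Gm39601 with 22 and 15, BC006965 with 16 and 18 and Gm30192 with 20 and 11. Lratd2, with 16 and 13, and Gm35488, with 16 and 11, completed the first 10. The nearest gene is a position on the map and was not tested as the target of any peak.

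Remote peaks were also counted over 4 lists of neural genes. For transcription factors of gene-poor regions, 22 had a body able to hold a remote peak, and 15 of them held one in both lists, 1 in the deleted one alone and 6 in neither, where 31.1% of all able genes held one in both. Their bodies carried 63.0 deleted and 41.1 control peaks per Mb, with a median of 9 and 5 peaks a gene, against 22.1 and 13.5 per Mb and a median of 0 over all 2059 able genes. Npas3 (70 deleted and 47 control) led them, followed by Tcf4 (44 and 35), Nfia (41 and 31), a factor of the switch to gliogenesis, and Sox6 (38 and 22). In Tcf4 the fold enrichments ran from 2.43 to 16.1 in the deleted and from 2.33 to 15.7 in the control list, and 11 and 7 of its peaks were list-only. In Nfia they ran from 2.1 to 8.40 and from 2.44 to 8.36, and 16 and 6 were list-only. The list was chosen with earlier results of these data known, so its density is a description.

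The other lists were less dense, and lay below the 22.1 deleted and 13.5 control peaks per Mb of all able genes. Of all able genes, 31.1% held a remote peak in both lists, 11.4% in the deleted one alone and 2.14% in the control one alone. The share in both was higher here, at 52.6% of glial, 42.9% of axon guidance and 47.5% of synapse genes. These lists too were chosen with earlier results of these data known. Of 19 glial and radial glial genes able to hold a remote peak, 10 held one in both lists, 3 in the deleted one alone, 1 in the control one alone and 5 in neither, with 17.6 deleted and 10.9 control peaks per Mb. Ntrk2, the receptor TrkB for BDNF, had 33 and 12 peaks, the widest gap of its list, while Tnr, which encodes tenascin-R, had 20 and 20, Sema6d 13 and 13 and Gpm6a, a membrane glycoprotein gene, 12 and 12. Of 28 axon guidance genes, 12 held one in both, 3 in the deleted list only, 0 in the control list only and 13 in neither, with 14.8 and 8.07 per Mb. Sema5a had 28 and 16, Ptprg, a receptor phosphatase gene, 20 and 6, Sema5b 18 and 8 and Ptprm 14 and 10. Last, of 61 long synapse and adhesion genes, 29 held one in both, 10 in the deleted list only, 1 in the control list only and 21 in neither, with 9.56 and 5.24 per Mb. Opcml and Ntm, both of the IgLON family of adhesion proteins, had 46 and 28 and 31 and 19, Celf2 32 and 27, and Cdh4, which encodes R-cadherin, 32 and 19. In each of the 4 lists the deleted density exceeded the control density, as it did over all able genes.

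**Figure D4:**
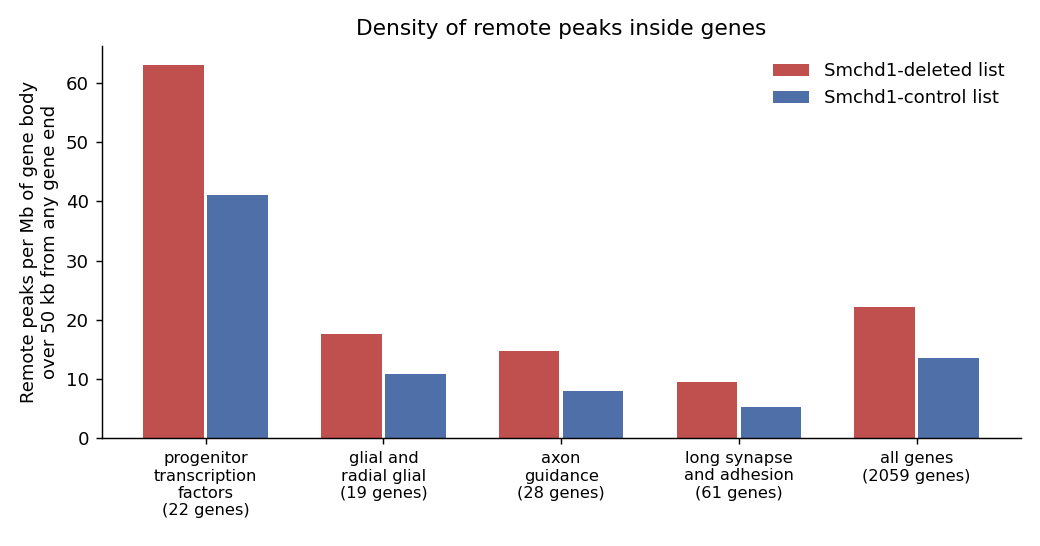
Remote peaks per Mb of gene body over 50 kb from any gene end, in the deleted and the control list, for the able members of 4 gene lists and for all 2059 able genes. Progenitor transcription factors stand at 63.0 and 41.1, above the 22.1 and 13.5 of all genes, and the 3 other lists lie between 9.56 and 17.6 in the deleted and between 5.24 and 10.9 in the control list.

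The same lists were counted by protein-coding genes that bound remote desert sequence, a count chosen after values were seen. Of 3005 such genes, 691 (23.0%) had a remote peak beside them in both lists, 321 (10.7%) in the deleted one alone, 64 (2.13%) in the control one alone and 1929 in neither. Among 51 of the transcription factors, 25 did in both, 7 in the deleted list only, 2 in the control list only and 17 in neither. Beyond Sall3, Meis1, Sox9 and Sox2, with 54 and 29, 45 and 23, 36 and 28, and 32 and 11 peaks on both sides together, no member had over 24 in either list. Of 23 glial genes, 14 had them in both lists. Of 58 synapse genes, 28 did, and of 28 axon guidance genes, 8 did. Some markers of other cells held remote peaks too. Syt1, of neurons, had 13 deleted and 6 control peaks beside it, and Ptprc, of leukocytes, 16 and 10. Map2, of neurons, had 9 and 5 inside its body, and the 3 able neuron markers together had 16.0 deleted and 8.02 control peaks per Mb of body, near the glial list. The 3 fibroblast genes beside remote sequence had at most 2. What part other cells in the culture have in these peaks was not tested.

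Some remote peaks overlapped the windows of annotated internal starts, where 1 shared base sufficed. Of the 261 internal start windows, 52 (19.9%, 15.3 to 25.3) lay under a peak in both lists, 16 (6.13%) under a deleted peak only, 8 (3.07%) under a control peak only and 185 under neither. Over all 31365 windows the shares were 24.6%, 7.73% and 1.62%. From the side of the peaks, 69 remote peaks of the deleted list, 0.794% (0.619 to 1.00), and 61 of the control list, 1.16% (0.885 to 1.48), overlapped such a window. They were strong: their median fold enrichment was 5.88 (deleted) and 5.25 (control), against 3.36 and 3.80 for the other remote peaks. They were also wider, with a median of 561 and 485 bases against 275 and 281. A wider peak more easily touches a window or a peak of the other list, and the part of width was not tested. At least 5-fold enrichment was reached by 60.9% and 55.7% of them. Their list-only share was low, at 15.9% (8.24 to 26.7) in the deleted and 6.56% (1.82 to 16.0) in the control list, against 61.9% (60.8 to 62.9) and 33.9% (32.6 to 35.2) of the other remote peaks. Of the 10 strongest members inside genes, 4 deleted and 3 control peaks overlapped an internal start window.

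**Figure D5:**
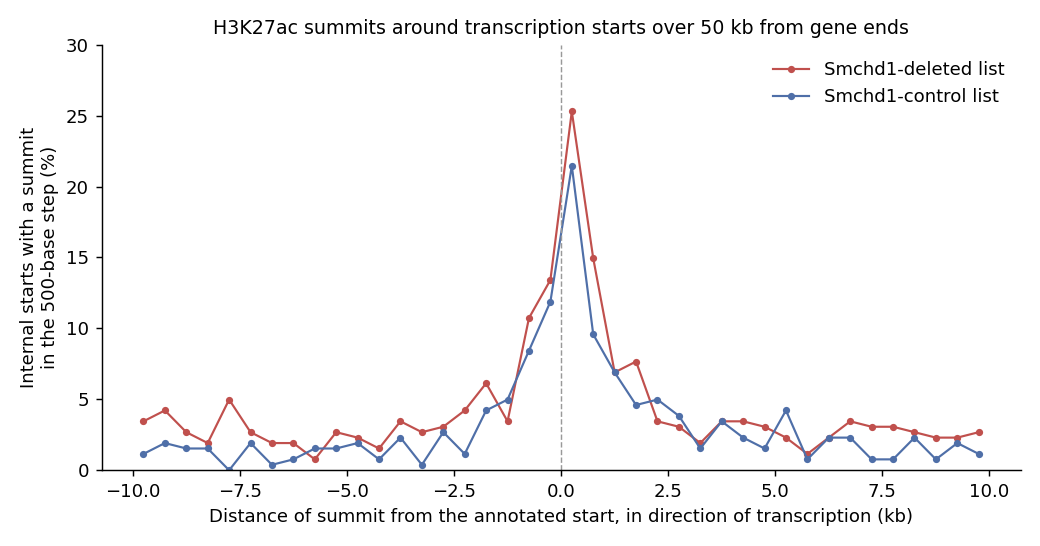
Percentage of the 261 starts over 50 kb from gene ends that have a peak summit in each 500-base step from 10 kb before to 10 kb after the start, in the direction of transcription, in the deleted and the control list. The highest step in both lists is the first 500 bases after the start, with 25.3% of starts for deleted and 21.5% for control summits.

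Internal starts under a peak were richer in CpG than those without. The 52 windows with a peak in both lists held a median of 10 CpGs and the 185 without held 5. Other windows with a peak in both lists held 22, and all windows 7. An observed over expected CpG ratio above 0.6 was found in 20 of the 52 (38.5%) and in 26 of the 185 (14.1%), and in 75.7% of the other windows with a peak in both lists. Read the other way, 37.0% (24.3 to 51.3) of the 54 internal starts above that ratio had a peak in both lists, against 15.5% (10.8 to 21.1) of the 207 below it, and the intervals did not overlap. Over all starts the same shares were 51.2% and 9.49%. Of short motifs searched on both strands, the bHLH motif CAGATG stood in 11.5% of the 52 windows, 22.2% of the 185 and 17.2% of all windows, and the SOX motif ACAAAG in 21.2%, 23.2% and 18.6%. Other motifs were the SOX motif ACAATG (15.4%, 16.8% and 12.2%), the AP-1 motif TGANTCA (7.69%, 7.03% and 7.85%), the bHLH motif CAGCTG (19.2%, 22.2% and 16.3%) and the TEAD motif GGAATG (19.2%, 18.4% and 14.6%). The SOX and the bHLH motifs are variants of a common core, and a window could hold several. These shares describe letters in 300 bases, and a match is not a bound site.

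Gene by gene, internal starts with a peak in both lists included Atxn7 (fold enrichment 9.57 in deleted and 9.48 in control cells), Sash1 (9.91 and 9.0), Jmjd1c, a histone demethylase family gene (8.57 and 10.3), Gpm6a (8.40 and 9.28) and Sox6 (7.89 and 5.25). In Celf2 3 internal start windows were under a peak in both lists. The one printed above had 6 CpGs (11 and 11.3) and that of the start at position 6872035 had 48 (9.23 and 8.07). A weaker one belonged to the start at 6721662 (2.69 and 4.04). Anks1b had such a window for the start at position 90576691 (7.39 and 4.6). Dab1, an adaptor of the reelin pathway, had one for the start at 104367538, with 46 CpGs (7.22 and 6.05). The control peaks at Celf2 6872035, Anks1b and Dab1 ended at 6872023, 90576632 and 104367429, so they touched the window without including the start. These genes were chosen for naming after their values were seen.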

How the data were processed

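H3K27ac was measured by ChIP-seq in 1 deleted and 1 control culture, each with an input library. The submitters' processing notes name bcl2fastq, Bowtie 0.12.9 and the build mm10. Peaks were called by the authors with MACS2 2.1.0.20140616, each ChIP against the matching input, with q-values up to 0.05 and duplicates reduced to 1 tag, per the file headers. For each peak the deposited lists give position and length in bases, the pileup signal at the summit, −log10 p-values, −log10 q-values and the fold enrichment, which is a ratio to the local background of the same library and is not scaled between libraries. The local background was computed here as (pileup + 1) / fold − 1, in tags. Values more than 2% over the lowest of a list counted as above the floor.

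Genes were the 33073 autosomal protein-coding and lncRNA genes of the RefSeq table on GRCm38.p6, the patched form of the build in the notes. Distance ran from the summit to the nearest end of any gene. Internal starts came from RefSeq windows of 300 bases on the same build, of which 31365 were distinct. No genome sequence was used, so the planned motif counts under peak summits became counts in those windows. Peaks that overlapped by at least 1 base were shared, and a start window that a peak overlapped by at least 1 base counted as under that peak. Counts were tested on simulated data with planted members. Alternatives were other distances, gene sets, thresholds, overlaps and lists of equal length. With 1 library per group, no test between conditions was run. Groups follow the sample titles.

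The members, gene lists and tests were chosen with earlier results of these data known. Named were, per list, the 5 most enriched peaks and the 5 most enriched list-only peaks inside and between genes, the 3 farthest, the 10 genes with most peaks, the 5 largest gaps in each direction, the 10 most frequent nearest genes, the 5 fullest 1 Mb bins, and up to 4 members of each gene list. Deserts between coding genes, internal starts and genes named there were chosen after values were seen. The 4 gene lists and the cell type markers came from textbook knowledge. Python 3.11.15, pandas 2.3.3, numpy 2.4.6, scipy 1.17.1 and matplotlib 3.10.9 were used.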

Additional observations from a re-analysis of the deposited data

Results flagged for a closer look

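Chromosome X was outside the comparison, which used chromosomes 1 to 19, and it too held remote peaks by the same distance rule. The deleted list had 115 of them among 1074 peaks, 49 inside genes and 66 between, and the control list had 35 among 658, 16 inside and 19 between. The ratio was 3.29 (2.23 to 4.94), against 1.64 (1.59 to 1.70) on the autosomes. Gpm6b, a membrane glycoprotein gene of neurons and glia, alone held 23 deleted and 5 control peaks. Without it the numbers were 92 and 30, a ratio of 3.07 (2.01 to 4.80). With the deleted list cut at the q-value that brings the autosomal lists to equal length, 79 stood against 35, a ratio of 2.26 (1.498 to 3.46). At a fold enrichment of at least 5 there were 8 and 3, a ratio of 2.67 (0.640 to 15.6). Chromosome Y had 0 remote peaks in either list, among 46 and 35 peaks; the cells are labelled female. The cause of these numbers was not tested.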

How the results depend on the processing

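No paired analysis was possible because each group has 1 library; for the same reason no library could be left out in turn. The ratio of deleted to control remote peaks, over all of them, ran from 1.04 to 1.69 over the alternatives. The lowest came with lists of equal length, whose totals are equal by construction. Single loci turned. With lists of equal length the control list held more in Npas3 (46 and 47), Xylt1 (57 and 65) and the Igfbp3 to Tns3 desert (44 and 50). Among peaks enriched at least 5-fold it held more in Xylt1 (7 and 15) and the Sall3 to Galr1 desert (7 and 10). At that level the deleted list held more in Npas3 (10 and 5) and the Igfbp3 to Tns3 desert (14 and 10). Without the fullest 1 Mb, the deleted and control lists still held 8576 and 5203 remote peaks. Nearly all list-only members are weak peaks, and the part of depth was not tested. Unless said otherwise the cause of a change was not tested, and a pair of values gives the deleted list first.

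With 25 kb as the limit, 18706 and 11561 peaks were remote (20.7% and 18.4%), 71.8% and 72.0% of them inside genes, and 60.4% of the deleted ones were list-only. With 100 kb they were 3056 and 1804 (3.38% and 2.87%), 61.6% and 61.1% inside, 63.9% and 36.1% list-only, and the control median fold enrichment was 3.72. Against protein-coding genes alone they were 18839 and 11564 (20.8% and 18.4%), 52.8% and 52.9% inside, 60.3% and 31.9% list-only. Against genes of every biotype the shares were 7.27% and 6.36%, with 73.5% and 74.6% inside. The changed numbers follow from the rule itself; why the list-only shares and the median moved was not tested.

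At a −log10 q of at least 5, 3564 and 2461 were remote (7.78% and 6.93%), a ratio of 1.45, with 70.8% of the deleted ones inside and 37.0% and 16.9% list-only. There 421 genes held remote peaks in both lists, and 6 of the glial genes did. Among peaks enriched at least 5-fold the numbers were 822 and 767 (4.35% and 4.22%), a ratio of 1.07, with 74.7% and 75.1% inside and 6.57% and 3.13% list-only. There 202 genes held remote peaks in both lists and 68 in the deleted list only, and 17 synapse, 3 glial and 4 axon guidance genes did in both. Of internal starts, 30 were under a peak in both lists at that level, and 85 when windows were widened by 1 kb.

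With lists of equal length, 5475 deleted peaks were remote (8.70%), a ratio of 1.04, and their median fold enrichment was 3.75. List-only shares became 49.4% and 43.5%, against 37.4% and 31.7% nearer to genes, and 140 genes held only deleted and 99 only control remote peaks. Counting as shared only an overlap of 50% of both peaks gave 76.3% and 61.0% list-only, and summits within 250 bases gave 67.3% and 46.3%. Without peaks of raised local background, a setting chosen with the data in view, the remote shares were 8.89% and 7.70%, and 64.8% and 36.03% were list-only.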

Other observations

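The ranks of matched remote peaks were also compared. Over 2667 pairs, the deleted member stood at a median of the 60.1 percentile of its own list and the control member at the 46.7 percentile, with a median difference of 7.92 points. Nearer to genes the difference was 5.91 points over 32835 pairs. Lists of unequal length shift such percentiles by themselves, so these values show no change between the cultures.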
